A study of Mus musculus with 3 samples.

Results

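The vomeronasal receptor genes are described here by the DNA methylation of their promoters, gene bodies and chromosome clusters in male germ cells. The members are all protein-coding genes on the autosomes of the RefSeq annotation of mm10 whose symbols start with *Vmn1r* or *Vmn2r*. They number 351 of 20558 autosomal protein-coding genes, with 229 *Vmn1r* genes on 7 chromosomes and 122 *Vmn2r* genes on 8. The choice rests on names and positions and uses no methylation value. The 265 autosomal vomeronasal receptor genes annotated as pseudogenes are not members.

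The study asked what the piRNA pathway and DNA methylation each contribute to retrotransposon silencing in the male germ line, and whole-genome bisulfite shotgun sequencing at postnatal day 7 (P7) was one of its measurements. Spermatogonia, the mitotic germ cells of the testis, were sorted with an antibody to EpCAM from wild-type mice (WT) and from mice lacking *Pld6* (*Pld6* KO) or *Dnmt3l* (*Dnmt3l* KO), all of the strain labelled C57BL6/J, and the third genotype is spelled Dnmt3L KO in the labels. *Pld6* encodes a mitochondrial nuclease needed to make piRNAs, and *Dnmt3l* encodes a cofactor of the *de novo* DNA methyltransferases. One library of each genotype was analysed, so that genotype and library cannot be told apart, and no test between genotypes was possible. Both mutant lines had been backcrossed to C57BL/6J, and the study's WT category pools wild-type and heterozygous mice, without the labels saying which of them gave the library used here.

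Vomeronasal receptors are G protein-coupled receptors of the sensory neurons of the vomeronasal organ, where they detect pheromones and other social cues. The V1R receptors, encoded by *Vmn1r* genes with a single coding exon, are found in apical neurons with the G protein subunit encoded by *Gnai2*. The V2R receptors, encoded by *Vmn2r* genes with several exons and a large extracellular domain, are found in basal neurons with the subunit encoded by *Gnao1*. Each neuron uses a single one or very few of these genes, which lie in large clusters made by gene duplication, and they have no known role in spermatogonia. In male germ cells, methylation is erased in the embryo and laid down anew before birth, so that levels at P7 follow *de novo* methylation. In the annotation, 210 of the 229 *Vmn1r* genes had 1 exon, and their median length was 0.924 kb. The *Vmn2r* genes had a median of 6 exons and a median length of 24.6 kb. The annotated gene start was that of the coding sequence in 193 *Vmn1r* and 103 *Vmn2r* genes. The start of transcription of these genes is therefore not given, and their promoter windows are placed by the coding start.

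A methylation level is the share of calls in a region that are methylated, summed over its CpG sites, and is given as a fraction from 0 to 1. The files hold 43757722 calls for WT, 64076569 for *Pld6* KO and 19289688 for *Dnmt3l* KO. Intervals are 95% Wilson intervals for a level and 95% Newcombe intervals for a difference, and cover counting error only. Calls of one read are linked, which makes these intervals too narrow. Reads were mapped to unique sequence, and near-identical receptor genes were covered thinly. Promoters of the members (2 kb before to 0.5 kb after the gene start) had 1.15, 1.58 and 0.594 calls per CpG site in WT, *Pld6* KO and *Dnmt3l* KO, against 2.43, 3.11 and 0.973 in promoters of the 20207 other genes, which include the olfactory receptor genes. No promoter call at all was found for 67 members in WT, 69 in the *Pld6* KO and 82 in the *Dnmt3l* KO. The first exon of *Pld6* had 90 calls in WT, 40 in *Dnmt3l* KO and 0 in *Pld6* KO, and the stretch from exon 4 to exon 9 of *Dnmt3l* had 68 in WT, 150 in the *Pld6* KO and 0 in the *Dnmt3l* KO. The start of *Kcnq1ot1* (*Lit1*), which is unmethylated in male germ cells and methylated on the maternal copy in somatic cells, had levels of 0.0780, 0.0700 and 0.0154.

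The sequences next to the receptor genes were poor in CpG. The 250 bases before the start held a median of 1 CG in the 305 members whose RefSeq promoter sequence (GRCm38.p6) begins at the start used here, and a median of 10 in the 19762 sequences of 16135 other autosomal genes. No CG was found in 30.2% of the members' sequences, against 5.92% of the others. The lines that follow show the range, with every CG in capitals, each written 5′ to 3′ on the strand of the gene. *Vmn1r54* (chr6:90268856-90269105, + strand) had the highest *Dnmt3l* KO promoter level of the *Vmn1r* genes compared, *Vmn1r85* (chr7:13085216-13085465, - strand) has no CG, *Vmn2r11* (chr5:109059453-109059702, - strand) was the *Vmn2r* promoter with the largest decrease in *Pld6* KO, *Vmn2r26* (chr6:124024508-124024757, + strand) is a receptor of known function, and *Vmn2r29* (chr7:7278290-7278539, - strand) is the CpG-dense exception.
Vmn1r54: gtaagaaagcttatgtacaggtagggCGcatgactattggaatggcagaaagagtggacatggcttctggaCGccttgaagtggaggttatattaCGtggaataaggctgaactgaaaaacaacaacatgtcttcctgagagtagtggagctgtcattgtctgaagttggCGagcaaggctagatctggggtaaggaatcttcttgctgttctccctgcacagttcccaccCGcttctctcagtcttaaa
Vmn1r85: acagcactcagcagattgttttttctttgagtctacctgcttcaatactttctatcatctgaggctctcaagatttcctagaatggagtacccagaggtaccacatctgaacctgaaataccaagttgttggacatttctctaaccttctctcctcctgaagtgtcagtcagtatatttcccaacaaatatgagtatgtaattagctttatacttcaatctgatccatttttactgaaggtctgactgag
Vmn2r11: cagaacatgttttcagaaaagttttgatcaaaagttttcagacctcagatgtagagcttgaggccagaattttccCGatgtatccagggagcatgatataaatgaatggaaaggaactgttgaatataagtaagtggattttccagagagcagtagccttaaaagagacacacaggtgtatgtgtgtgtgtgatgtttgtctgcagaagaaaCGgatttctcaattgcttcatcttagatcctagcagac
Vmn2r26: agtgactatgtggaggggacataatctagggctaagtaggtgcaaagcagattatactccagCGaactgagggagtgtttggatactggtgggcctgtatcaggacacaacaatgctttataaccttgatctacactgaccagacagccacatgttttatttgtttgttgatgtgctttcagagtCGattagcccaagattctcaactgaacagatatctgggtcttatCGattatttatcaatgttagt
Vmn2r29: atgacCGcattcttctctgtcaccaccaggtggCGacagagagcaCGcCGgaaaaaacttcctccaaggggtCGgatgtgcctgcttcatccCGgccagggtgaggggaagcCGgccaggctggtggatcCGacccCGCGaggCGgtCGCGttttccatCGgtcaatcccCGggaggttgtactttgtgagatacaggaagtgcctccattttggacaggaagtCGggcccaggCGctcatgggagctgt
In the *Vmn1r54* sequence the 5 CG sites had 8 methylated of 8 calls in WT, 10 of 10 in *Pld6* KO and 2 of 6 in *Dnmt3l* KO. In the *Vmn2r26* sequence the counts were 3 of 3, 3 of 5 and 0 of 4 calls over 3 sites. In the *Vmn2r29* sequence, with 17 sites, they were 2 of 31, 8 of 56 and 0 of 24. In WT, all calls in the *Vmn1r54* and *Vmn2r26* sequences were thus methylated, and most calls in the CpG-dense *Vmn2r29* sequence were not. These few calls of chosen genes give no rule for the families. The *Vmn2r29* sequence precedes the start of a predicted transcript, 31.0 kb from the curated start. *Vmn2r11* had 1 call in WT and none in *Dnmt3l* KO within these 250 bases, too few to describe.

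Promoters of both receptor families were methylated in WT and *Pld6* KO and mostly unmethylated in *Dnmt3l* KO. The *Vmn1r* promoters had a pooled level of 0.674 in WT (interval 0.656 to 0.692, 2644 calls), 0.708 in the *Pld6* KO (0.693 to 0.723, 3539 calls) and 0.147 in the *Dnmt3l* KO (0.128 to 0.167, 1281 calls). The *Vmn2r* promoters had 0.626 in WT (0.602 to 0.650, 1546 calls), 0.589 in the *Pld6* KO (0.568 to 0.610, 2205 calls) and 0.121 in the *Dnmt3l* KO (0.101 to 0.144, 877 calls). WT exceeded *Dnmt3l* KO by 0.527 (0.5 to 0.553) in *Vmn1r* and by 0.505 (0.472 to 0.536) in *Vmn2r* promoters. The promoter level in *Dnmt3l* KO was 20.8% of that in WT over both families, and 39.3% in other genes, whose promoters had 0.170 in WT, 0.207 in the *Pld6* KO and 0.0668 in the *Dnmt3l* KO. The WT level of the receptor promoters was thus far above that of other promoters, and the interval ranges do not overlap.

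Between WT and *Pld6* KO the families differed in sign by small amounts. In *Vmn1r* promoters *Pld6* KO subtracted from WT gave -0.0338 (-0.0572 to -0.0106), and in *Vmn2r* promoters it was 0.0370 (0.00523 to 0.0685). Over all autosomal sites the same difference was -0.0200, with levels of 0.704 in WT and 0.724 in *Pld6* KO. The *Vmn1r* value therefore lay on the side of the whole library, and the *Vmn2r* value on the other. The *Vmn2r* value was -0.0120 when the promoter was taken from 0.5 kb before to 0.5 kb after the start, and its sign is not settled by these data.

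**Figure D1:**
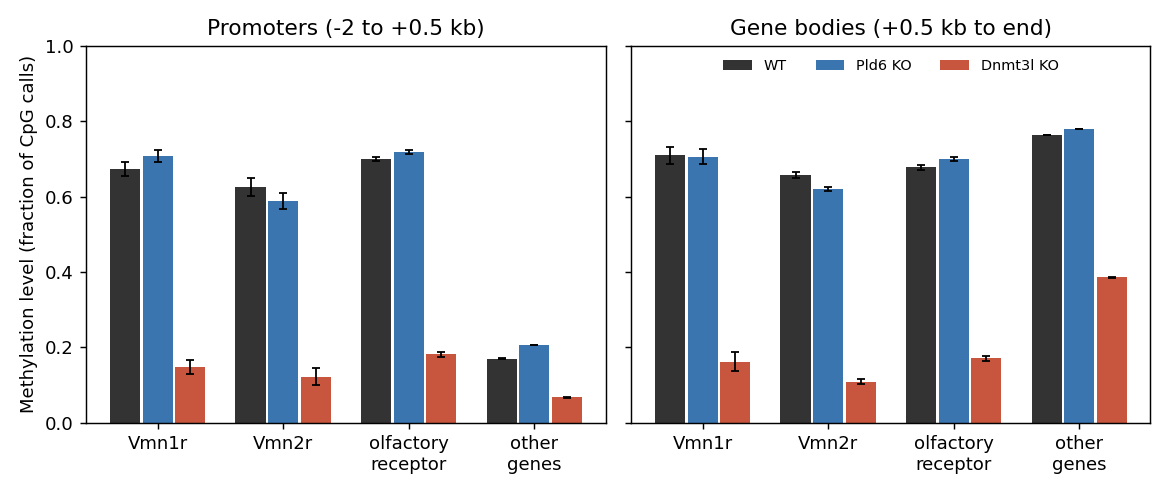
Pooled methylation level (fraction of CpG calls) in promoters and gene bodies of *Vmn1r*, *Vmn2r*, olfactory receptor and other genes, in 1 library per genotype. Bars start at 0 and lines on them are 95% Wilson intervals; receptor promoters reach 0.589 to 0.718 in WT and *Pld6* KO and 0.121 to 0.182 in *Dnmt3l* KO, and promoters of other genes stay at or below 0.207.

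Gene bodies, taken from 0.5 kb after the start to the gene end, gave a like picture for the receptors. The *Vmn1r* bodies had levels of 0.710 in WT, 0.706 in the *Pld6* KO and 0.161 in the *Dnmt3l* KO. The *Vmn2r* bodies had 0.657 in WT (0.650 to 0.664, 16109 calls), 0.620 in the *Pld6* KO (0.614 to 0.627, 21761 calls) and 0.108 in the *Dnmt3l* KO (0.102 to 0.115, 7985 calls). Other genes had 0.764, 0.780 and 0.385 in their bodies. In *Dnmt3l* KO, the *Vmn2r* bodies had 16.5% of their WT level and the bodies of other genes 50.4%. WT exceeded *Pld6* KO by 0.0366 (0.0268 to 0.0464) in *Vmn2r* bodies and by 0.00393 (-0.0267 to 0.0342) in *Vmn1r* bodies. The sign of the *Vmn1r* value is not settled, since it ran from -0.00358 without cluster 7-3 to 0.121 at sites with 3 or more calls in each library.

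Within the *Vmn2r* genes, exons and introns were both methylated in WT. Exons, which encode the extracellular domain and the membrane-spanning part, had 0.688 in WT, 0.708 in the *Pld6* KO and 0.121 in the *Dnmt3l* KO, and introns had 0.652, 0.612 and 0.107. WT minus *Pld6* KO was -0.0198 (-0.0476 to 0.00791) in exons and 0.0408 (0.0305 to 0.0511) in introns. Introns hold 13187 of the CpG sites and exons 1337, so the body value is mainly that of introns.

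The olfactory receptor genes, the other large family of chemosensory receptors, had levels close to those of the vomeronasal receptors. Promoters of 1103 olfactory receptor genes had 0.700 in WT, 0.718 in the *Pld6* KO and 0.182 in the *Dnmt3l* KO, and the *Dnmt3l* KO level was 25.9% of the WT level. Bodies had 0.678, 0.700 and 0.170. In *Dnmt3l* KO, the intervals of the *Vmn2r* promoters (0.101 to 0.144) and of the olfactory receptor promoters (0.175 to 0.189) do not overlap, and the *Vmn1r* interval ends at 0.167. The 15 *Taar* genes, which encode trace amine-associated receptors of the olfactory epithelium, had promoter levels of 0.553, 0.566 and 0.139.

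Around the annotated gene start, the receptor genes showed no trough of methylation as deep as that of other genes. For most members this start is that of the coding sequence. In bins of 500 bases between 2 kb before and 2 kb after the start, WT levels ran from 0.554 to 0.710 in *Vmn1r* genes and from 0.577 to 0.704 in *Vmn2r* genes. In other genes the WT level dropped to 0.0513 in the 500 bases after the start. A shallow dip was present in *Vmn1r* genes, whose lowest bin, 0.554 (0.509 to 0.598), was the one just before the start. The bin before it had 0.681 (0.636 to 0.723) and the bin after it 0.710 (0.676 to 0.743). The lowest of these bins, with 480 WT calls, includes the CpG-dense annotated start of *Vmn1r4*, whose whole promoter window had 0.0796 on 201 WT calls. The bins were not computed with curated starts, and whether the dip is present without this gene was not tested. In *Dnmt3l* KO the bins of both families lay between 0.0515, in the *Vmn2r* bin just before the start, and 0.210. CpG sites were also evenly spread, with 1.99 sites per *Vmn1r* gene and 2.34 per *Vmn2r* gene in the 500 bases after the start, against 27.4 in other genes.

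**Figure D2:**
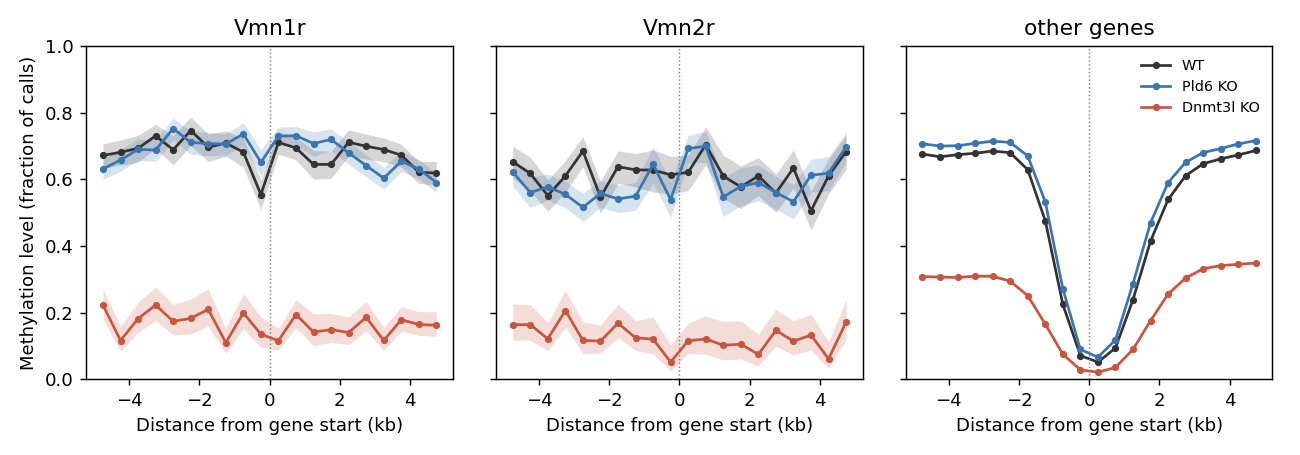
Methylation level (fraction of calls) by distance from the gene start (kb) in 500-base bins, in *Vmn1r*, *Vmn2r* and other genes. Lines join the pooled levels of 1 library per genotype and shading is the 95% Wilson interval; WT levels of receptor genes stay between 0.554 and 0.710 within 2 kb of the start, and those of other genes fall to 0.0513.

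In other genes, the pooled WT level ran from 0.773 to 0.789 in the groups of promoters with under 20 CpG sites. It was lower in CpG-denser groups, down to 0.0840 at 50 or more sites. Other genes with under 10 CpG sites in the promoter had a pooled WT level of 0.776, close to 0.789 in *Vmn1r* and 0.816 in *Vmn2r* promoters of the same CpG number. In *Dnmt3l* KO the levels at under 10 CpG sites were 0.221 in other genes, 0.155 in *Vmn1r* and 0.140 in *Vmn2r* genes, and at 10 to 14 sites they were 0.265, 0.185 and 0.134. The WT levels at 10 to 14 sites were 0.712 in *Vmn1r* and 0.610 in *Vmn2r* genes against 0.789 in others, and at 15 to 19 sites 0.814 and 0.633 against 0.773. At 20 to 29 sites, the *Dnmt3l* KO level was 0.025 in 2 *Vmn2r* promoters and 0.0455 in 1 *Vmn1r* promoter, against 0.285 in other genes. At 30 to 49 sites, the *Dnmt3l* KO level of 3 *Vmn2r* promoters was 0.241 and above the 0.155 of other genes. The WT level of these 3 promoters was higher too, with 0.614 against 0.414. In the same group, 1 *Vmn1r* promoter had 1 in WT and 0.156 in *Dnmt3l* KO. These are values of genes with at least 10 calls in each library, of which the lowest group holds 12 *Vmn1r* genes, 5 *Vmn2r* genes and 142 others, 64 of them olfactory receptor genes.

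Single genes could be compared where at least 10 calls were present in each library, which held for 73 of the 351 promoters and 117 of the 351 gene bodies. A gene was counted as lower when its level was below that of WT by at least 0.3. By this measure *Dnmt3l* KO was lower at 63 of the 73 promoters, 39 of 43 in *Vmn1r* and 24 of 30 in *Vmn2r*, and over all autosomal protein-coding genes the share was 24.3%. Of the gene bodies 108 of 117 were lower in *Dnmt3l* KO, against 66.4% of all genes. All 73 promoters and all 117 bodies had a level in *Dnmt3l* KO below that of WT, which also held for 92.1% and 98.9% of all genes and so does not set the members apart. Their median promoter level was 0.762 in WT, 0.786 in the *Pld6* KO and 0.133 in the *Dnmt3l* KO, and the medians for bodies were 0.677, 0.592 and 0.0976. The promoter median over the other genes was 0.131 in WT, which bears on the background share, since a promoter below 0.3 in WT cannot be lower by 0.3. Among promoters at 0.3 or more in WT, 63 of 67 were lower in the members and 4324 of 5647 in the other genes. For olfactory receptor genes the count was 351 of all 419 promoters compared (83.8%), close to that of the members.

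In *Pld6* KO, 2 of the 73 promoters were lower by at least 0.3 and 4 were higher by as much. The shares over all genes were 0.321% and 0.41%. Of the 419 olfactory receptor promoters compared, 12 were lower and 12 higher. Of the 117 gene bodies 0 were lower and 0 higher, against 0.0869% and 0.141% of all genes. The spread of the promoter difference among members includes counting error, since the median promoter had 23 calls in WT. Across the 106 *Vmn2r* bodies, the WT and *Pld6* KO levels had a Pearson's *R* of 0.867, a description across genes that share libraries and clusters. By any amount, *Pld6* KO was below WT in the bodies of 73 of 106 *Vmn2r* and 7 of 11 *Vmn1r* genes, against 39.1% of all genes, and the median difference in the *Vmn2r* bodies was 0.0524. In promoters it was below WT in 18 of 30 *Vmn2r* and 17 of 43 *Vmn1r* genes, against 37.1% of all genes, so that the *Vmn1r* share is near that of all genes.

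**Figure D3:**
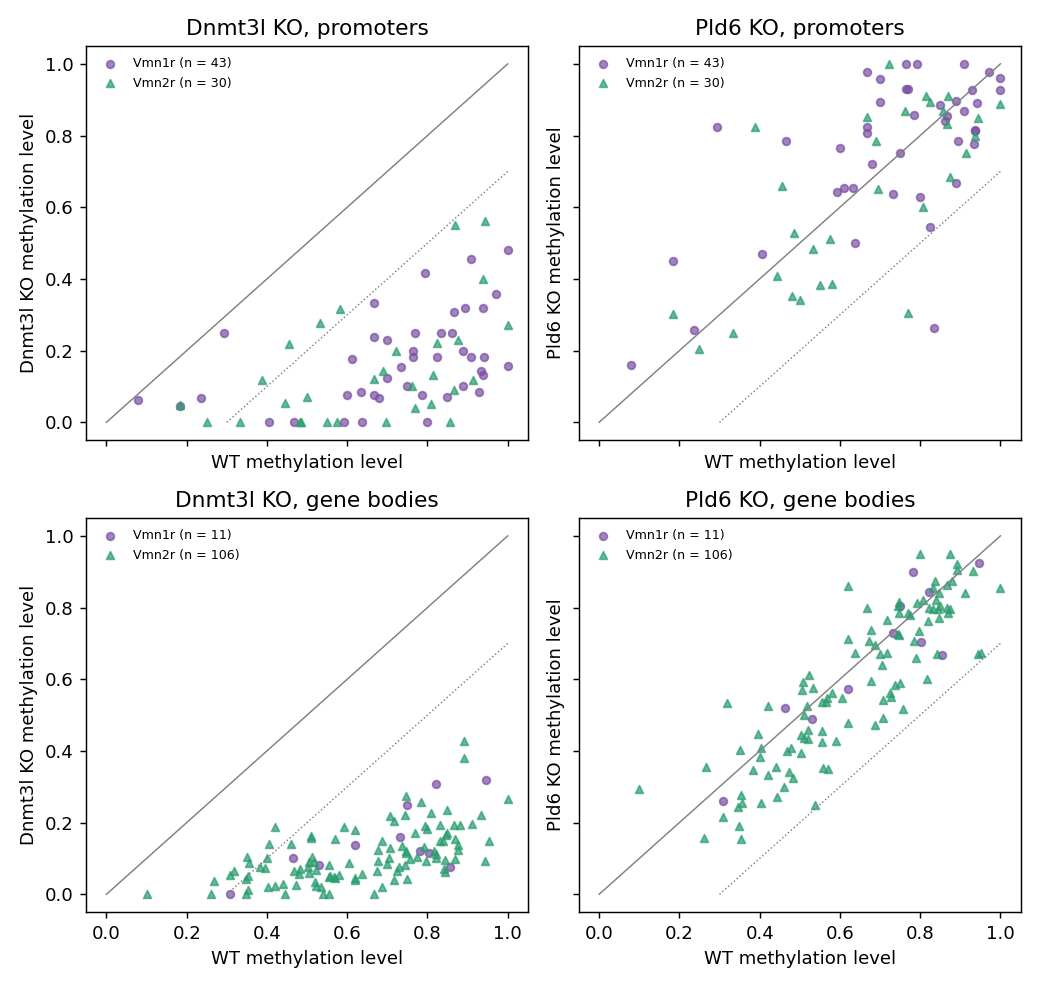
Methylation level of single receptor genes in *Dnmt3l* KO (left) and *Pld6* KO (right) against WT, for promoters (top) and gene bodies (bottom) with at least 10 calls in each library. Each point is 1 gene, the solid line marks equal levels and the dotted line a decrease of 0.3; in *Dnmt3l* KO all 73 promoters and 117 bodies lie below the solid line, and in *Pld6* KO points lie on both sides of it.

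Some of the receptors have a known ligand or role, and few calls cover the promoter of each one named here. *Vmn1r85*, one of the V1R genes whose neurons respond to sulfated steroids, had a promoter level of 0.848 in WT (33 calls), 0.886 in the *Pld6* KO (35 calls) and 0.0714 in the *Dnmt3l* KO (14 calls). *Vmn1r89*, its neighbour with a like response, had 0.765, 0.929 and 0.2 on 17, 28 and 15 calls. *Vmn2r26*, a V2R gene of neurons that respond to MHC peptides, had 1, 0.762 and 0 on 13, 21 and 9 calls in its promoter, and 0.784, 0.708 and 0.258 in its body. *Vmn2r116*, which encodes the receptor for the male tear peptide ESP1, had 0.667 and 0.750 in its promoter in WT and *Pld6* KO, and only 2 calls, both unmethylated, in *Dnmt3l* KO. Its body had 0.534 in WT, 0.576 in the *Pld6* KO and 0.0213 in the *Dnmt3l* KO on 103, 132 and 47 calls.

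*Vmn2r1* to *Vmn2r7*, a divergent group that is expressed broadly together with other V2R genes, form the cluster on chromosome 3. Their promoters were thinly covered, and not all were methylated in WT, with 0.438 on 16 calls in *Vmn2r2*, 0 on 4 calls in *Vmn2r5* and 1 on 12 calls in *Vmn2r7*. Their bodies lay between 0.793 and 0.932 in WT, between 0.671 and 0.921 in *Pld6* KO, and between 0.0962 and 0.429 in *Dnmt3l* KO. *Vmn2r1*, the longest member at 142.7 kb, whose span overlaps that of *Vmn2r2*, had body levels of 0.793 (1108 calls), 0.813 (1577 calls) and 0.191 (534 calls). *Vmn2r7* stood at the low end in both mutants, with 0.842 (0.775 to 0.893) in WT, 0.671 (0.610 to 0.726) in the *Pld6* KO and 0.0962 in the *Dnmt3l* KO. *Vmn2r5* had the highest *Dnmt3l* KO body level of all members compared, 0.429, on 14 calls (0.214 to 0.674). Within the group, the WT intervals of *Vmn2r1* (0.768 to 0.816) and *Vmn2r6* (0.883 to 0.962) do not overlap.

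The promoters chosen for the largest decreases in *Dnmt3l* KO are given as a description. *Vmn1r83* had 0.929 in WT, 0.926 in the *Pld6* KO and 0.0833 in the *Dnmt3l* KO, *Vmn1r88* had 1, 0.962 and 0.156, and *Vmn1r43* had 0.938, 0.812 and 0.133. In the V2R family, *Vmn2r118* had 0.857, 0.868 and 0, *Vmn2r77* had 0.913, 0.750 and 0.118, and *Vmn2r18* had 0.867, 0.833 and 0.0909. *Vmn1r54* had 0.48 (0.3 to 0.665) in *Dnmt3l* KO beside a WT level of 1 on 38 calls. Over 0.5 in *Dnmt3l* KO were 2 of the 73 promoters, both of *Vmn2r* genes, and 735 of 17982 promoters of other genes.

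A decrease of 0.3 was not reached in 10 promoters, and 8 of these had a WT level under 0.5. The most CpG-dense ones of each family were among them. *Vmn1r4*, with 94 CpG sites in the window, had 0.0796 in WT, 0.160 in the *Pld6* KO and 0.0610 in the *Dnmt3l* KO on 201, 206 and 82 calls. *Vmn2r29*, with 70 CpG sites, had 0.183, 0.303 and 0.0476 on 71, 142 and 84 calls. Both windows lie at the start of predicted transcripts, 32.6 kb and 31.0 kb before the start of the curated RefSeq transcript. The *Vmn1r4* window (chr6, around 56923914) also holds the start of *Nt5c3*, a nucleotidase gene on the other strand that begins at 56924008. At the curated start of *Vmn1r4*, with 10 CpG sites, 8 of 8 calls were methylated in WT, 4 of 4 in *Pld6* KO and 1 of 2 in *Dnmt3l* KO. At the curated start of *Vmn2r29*, also with 10 CpG sites, the level was 0 on 4 calls in WT and 0.667 on 3 calls in *Pld6* KO. In *Dnmt3l* KO 0 calls were present there. In all, 15 members had a start over 1 kb from the curated one, a count that would include any member without a curated transcript. With curated starts the pooled *Vmn1r* promoter levels were 0.727 in WT and 0.156 in *Dnmt3l* KO.

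Other members were low in WT without such a start. *Vmn1r198*, with 21 CpG sites in its promoter, had 0.183 (0.106 to 0.299) in WT, 0.449 (0.343 to 0.559) in the *Pld6* KO and 0.0455 in the *Dnmt3l* KO. *Vmn2r69* had 0.250, 0.205 and 0 in its promoter and 0.261, 0.158 and 0 in its body. *Vmn2r104* had 0.455, 0.658 and 0.217 in its promoter and 0.267, 0.355 and 0.0370 in its body. The 9 bodies that were not lower by 0.3 in *Dnmt3l* KO all had a WT level under 0.5, which leaves less room for such a decrease. All belong to *Vmn2r* genes on chromosomes 7 and 17. Of the 117 bodies compared, 106 are of *Vmn2r* genes, and these chromosomes hold 52 and 32 of the 122 *Vmn2r* genes. Gene family and chromosome therefore do not set these 9 bodies apart.

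The promoters with the largest differences between WT and *Pld6* KO went both ways. *Vmn1r210* had 0.833 in WT (0.552 to 0.953, 12 calls), 0.263 in the *Pld6* KO (0.150 to 0.420, 38 calls) and 0.250 in the *Dnmt3l* KO (12 calls). *Vmn2r11* had 0.769 in WT (0.617 to 0.874, 39 calls), 0.306 in the *Pld6* KO (0.218 to 0.410, 85 calls) and 0.0400 in the *Dnmt3l* KO (25 calls). *Vmn1r236* had the opposite order, 0.294 in WT (0.133 to 0.531, 17 calls) and 0.825 in *Pld6* KO (0.680 to 0.912, 40 calls), as did *Vmn2r78*, with 0.389 on 18 calls and 0.824 on 17. *Vmn1r211* with 0.667 and 0.977 and *Vmn1r215* with 0.467 and 0.786 complete the 4 that were higher, and the interval of the *Vmn1r215* difference reaches beyond 0. *Vmn1r211* was named after its values were seen. *Vmn1r21* (0.824 in WT and 0.545 in *Pld6* KO) and *Vmn2r82* (0.808 and 0.6) came next among the lower ones, and *Vmn2r57* (0.722 and 1) among the higher ones. The best covered *Vmn2r* promoters also differed in opposite directions, *Vmn2r44* with 0.581 in WT and 0.387 in *Pld6* KO and *Vmn2r56* with 0.667 and 0.851. Among the best covered bodies, *Vmn2r60* had 0.503 on 712 calls in WT and 0.444 on 873 calls in *Pld6* KO. *Vmn2r13*, with 494 calls in WT and 657 in *Pld6* KO, had a body level of 0.557 (0.513 to 0.600) in WT, 0.352 (0.316 to 0.389) in the *Pld6* KO and 0.0515 in the *Dnmt3l* KO.

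Most of the members lie in 14 clusters, defined as runs of at least 5 members whose starts are at most 1 Mb apart. The clusters hold 330 members in 24.9 Mb on chromosomes 3, 5, 6, 7, 13 and 17, and are named by chromosome and order along it. Over whole cluster spans the *Dnmt3l* KO level ran from 0.0858 in cluster 7-1 to 0.197 in cluster 13-1, and the WT level from 0.531 in cluster 7-3 to 0.817 in cluster 3-1. Pooled over the clusters, the levels were 0.603 in WT, 0.569 in the *Pld6* KO and 0.139 in the *Dnmt3l* KO, and in the 1 Mb flanks they were 0.616, 0.651 and 0.261. The span level in *Dnmt3l* KO was below that of the flanks in 13 of 14 clusters, with cluster 13-1, whose flanks had 0.168, as the exception. Cluster 7-3, with 86 *Vmn1r* genes, was covered by only 0.306 WT calls per site, and without it the pooled span levels were 0.607, 0.574 and 0.141.

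Over whole spans, the clusters differed from their flanks in *Pld6* KO. The span level was below WT in 14 of 14 clusters, by 0.00138 to 0.0876, and in 12 of these the intervals do not overlap. The flanks were below WT in 2 of 14. The difference was largest in cluster 5-1, a run of 10 *Vmn2r* genes, with 0.606 in WT and 0.519 in *Pld6* KO, and smallest in cluster 7-2, with 0.532 and 0.530. Within clusters WT minus *Pld6* KO was 0.0581 between genes, 0.0371 in member bodies and -0.00811 in member promoters. By single clusters, the difference was larger in member bodies than between genes in 5 of 14, among them cluster 5-1, with 0.105 in bodies and 0.0692 between genes. The *Pld6* KO library was the deepest of the 3, and whether depth or mapping had a part in the difference was not tested.

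**Figure D4:**
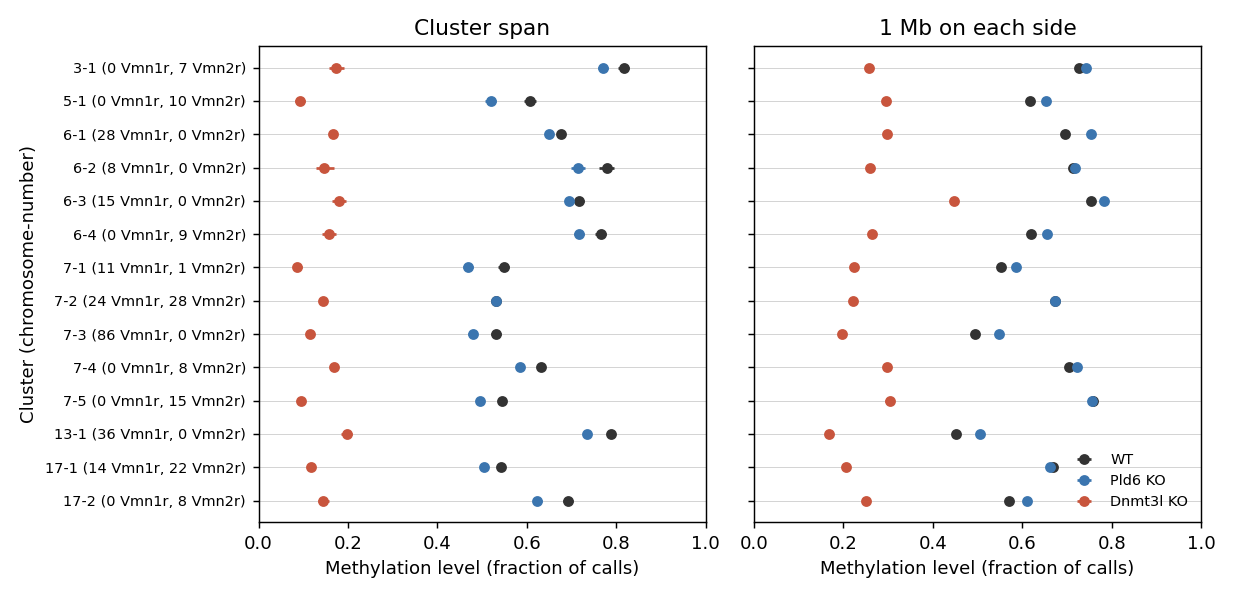
Methylation level (fraction of calls) over the whole span of each of the 14 clusters (left) and over 1 Mb on each side (right), 1 library per genotype. Lines through points are 95% Wilson intervals, mostly shorter than the points; inside the clusters *Pld6* KO lies below WT in 14 of 14 and *Dnmt3l* KO lies between 0.0858 and 0.197.

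Sequence marked as repeats in the reference made up 57.0% of the CpG sites of the clusters and 26.9% of those of the flanks. Elsewhere on the autosomes, outside clusters and flanks, the share was 24.4%. In the clusters, repeat sites had 0.645 in WT and 0.568 in *Pld6* KO, a difference of 0.0764 (0.0715 to 0.0813), and other sites had 0.573 and 0.569, a difference of 0.00408 (-0.000170 to 0.00833). In the flanks the difference was 0.0293 (0.0254 to 0.0332) at repeat sites and -0.0462 at other sites. Elsewhere the difference was 0.00224 at repeat sites and -0.0256 at other sites. At repeat sites of promoters it was 0.117 (0.0551 to 0.177) in *Vmn2r* and -0.0159 (-0.0795 to 0.0472) in *Vmn1r* genes. In *Dnmt3l* KO, repeat sites of the clusters had 0.133 (0.1295 to 0.1368) and other sites 0.143 (0.1401 to 0.1466). WT minus *Dnmt3l* KO was 0.511 (0.5062 to 0.5166) at repeat sites of the clusters and 0.430 (0.4253 to 0.4345) at other sites. In both mutants the difference from WT was thus larger at repeat sites of the clusters, where the WT level was higher. The mark covers all classes of repeats together, and which of them carried these differences was not tested.

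Among windows of 10 kb that had 20 or more calls per library, 61 of 1578 cluster windows were lower in *Pld6* KO by at least 0.3 (3.87%), where the share over all autosomal windows was 1.17%. These 61 windows lay in 13 of the 14 clusters, 12 of them touched a member gene, and 75.1% of their CpG sites were in repeats. The largest difference was in cluster 13-1 in the window over *Vmn1r210* (chr13:22820001-22830000), with 0.901 in WT, 0.310 in the *Pld6* KO and 0.143 in the *Dnmt3l* KO on 71, 129 and 35 calls. For *Dnmt3l* KO, 87.4% of the cluster windows were lower by at least 0.3, against 85.9% of all windows, so that the clusters were not set apart by this count.

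The clusters are poor in GC, between 36.9% and 40.8%, and GC-poor sequence was also less methylated in *Dnmt3l* KO elsewhere. Windows of 100 kb, each holding 100 or more calls per library, were divided into 10 groups of GC content, and the 6 lowest groups held cluster windows. In the lowest group the *Dnmt3l* KO level was 0.0896 ± 0.0303 (SD over 33 cluster windows) against 0.161 ± 0.0659 in 2348 windows elsewhere. In the fifth group it was 0.166 ± 0.0841 over 22 cluster windows and 0.280 ± 0.0923 over 2357 elsewhere. The WT level was lower in cluster windows too, with 0.528 ± 0.119 against 0.732 ± 0.0957 in the lowest group and 0.680 ± 0.0883 against 0.758 ± 0.113 in the fifth. Windows of a cluster are neighbours and not independent, and the ranges of mean ± SD of clusters and other windows overlap at the same GC content, except in WT and *Pld6* KO in the second group.

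The absolute difference between WT and *Dnmt3l* KO in cluster windows, 0.438 in the lowest group, was smaller than that elsewhere, 0.570, and the WT level was lower as well. In the fifth group it was 0.514 in clusters and 0.478 elsewhere. WT exceeded *Pld6* KO by 0.0499 ± 0.0541 in the lowest group of cluster windows and by 0.0246 ± 0.0494 elsewhere, and by 0.0411 ± 0.0413 and 0.00265 ± 0.0409 in the fifth group. The mean difference was larger in clusters than elsewhere in each of the 6 groups, by less than the SD over the cluster windows of the group.

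**Figure D5:**
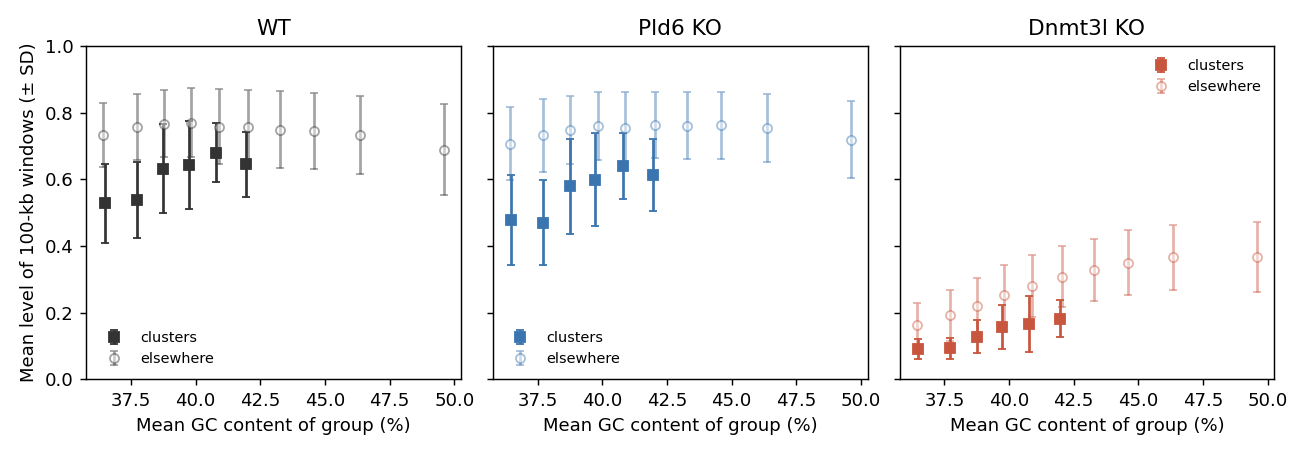
Mean methylation level of 100-kb windows (fraction, ± SD over windows) against the mean GC content (%) of 10 groups of windows, for windows in vomeronasal receptor clusters (filled squares, 6 groups) and elsewhere (open circles, 10 groups), 1 panel per genotype. Cluster means lie below those elsewhere in each of the 6 shared groups in all 3 libraries, and the SD ranges overlap except in the second group in WT and *Pld6* KO.

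Genes that act with the receptors in vomeronasal neurons did not share one pattern. A list of 33 such genes (signal transduction, H2-M class I molecules, formyl peptide receptors, transcription factors and axon guidance) had enough calls for 29 promoters, of which 13 were lower in *Dnmt3l* KO by at least 0.3 (24.3% of all genes) and 0 in *Pld6* KO. The promoter of *Trpc2*, which encodes the channel of vomeronasal transduction, had 0.930 in WT, 0.872 in the *Pld6* KO and 0.447 in the *Dnmt3l* KO, and that of *Omp*, the olfactory marker protein gene, had 0.909, 0.911 and 0.410. The G protein genes had low promoter levels in WT, with 0.115 in *Gnai2* and 0.0793 in *Gnao1*. Under 0.2 in WT were 13 of the 29 promoters, among them those of the transcription factor genes *Bcl11b*, *Meis2* and *Tfap2e*. *H2-M1* and *H2-M9*, class I genes expressed with V2R receptors, had 0.784 and 0.857 in WT and 0.214 and 0.0833 in *Dnmt3l* KO. Of 27 gene bodies with enough calls, 17 were lower in *Dnmt3l* KO, a share near the 66.4% of all genes, and 0 in *Pld6* KO.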

How the data were processed

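Whole-genome bisulfite shotgun sequencing of P7 spermatogonia was analysed from 3 deposited files, 1 per genotype. The authors built post-bisulfite adaptor-tagged libraries, removed read ends and low-quality bases from the single-end reads and aligned them with Bismark to unique sequence of mm10. Removal of duplicate reads is not given in the sources used here. The deposited tables give, site by site, a count of methylated calls, a count of unmethylated calls and their level as a fraction. All levels here were computed from the deposited counts. Every autosomal site lay on a CG of the reference.

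Genes came from the RefSeq annotation of GRCm38.p6, with the start and end taken over all transcripts. Calls were pooled over sites, and sites in overlapping members were counted once in family totals. Levels have 95% Wilson intervals and differences 95% Newcombe intervals, for counting error only, and the functions were tested on simulated data. Single genes needed at least 10 calls in each library, and a difference of 0.3 was counted. Repeats are the soft-masked bases of the reference. Named genes are those with the most calls, those with the largest and smallest differences, and receptors of known role. Members and lists were chosen with earlier results of these data known. Python 3.11.15, numpy 2.4.6, pandas 2.3.3 and matplotlib 3.10.9 were used.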

Additional observations from a re-analysis of the deposited data

How the results depend on the processing

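No paired analysis was possible because each genotype has 1 library, and leaving out a replicate was likewise not possible. The 34 alternative values of WT minus *Dnmt3l* KO and 30 of the 34 of WT minus *Pld6* KO kept the sign. The *Vmn2r* promoter difference from *Pld6* KO turned to -0.0120 with a promoter of 0.5 kb on each side. The other 3 were *Vmn1r* bodies, with -0.00256 for whole genes, -0.000279 with curated starts and -0.00358 without cluster 7-3, against 0.00393. With sites of at least 3 calls in each library, WT minus *Pld6* KO was -0.0996 in *Vmn1r* promoters, 0.121 in *Vmn1r* bodies and 0.00149 in *Vmn2r* promoters, and WT minus *Dnmt3l* KO was 0.601 in *Vmn1r* bodies and 0.444 in *Vmn2r* promoters. The mean over genes gave 0.558 for *Vmn1r* promoters and 0.530 for *Vmn2r* bodies against *Dnmt3l* KO, and 0.0503 for *Vmn2r* bodies against *Pld6* KO. The mean over sites gave 0.562 and 0.0591 for these bodies. Gene starts of curated transcripts, chosen after seeing the data, gave 0.571 for *Vmn1r* promoters against *Dnmt3l* KO. With starts at most 2 Mb apart, 12 clusters resulted, with 0.459 and 0.0254 for WT minus *Dnmt3l* KO and minus *Pld6* KO. Leaving out cluster 7-3, also chosen after seeing the data, moved no value beyond its interval. The cause of these changes was not tested.

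The counts of promoters lower in *Dnmt3l* KO were 140 of 158 with at least 5 calls and 9 of 15 with at least 20. Those lower in *Pld6* KO were 8 of 158 and 1 of 15, and at 10 calls 5 for a decrease of 0.2 and 1 for 0.5. Of gene bodies 71 were lower in *Dnmt3l* KO by 0.5, and 9 in *Pld6* KO by 0.2. Shares over all genes were not computed at these settings, so these counts do not set the members apart. Depth limits the single genes, since 278 promoters lacked 10 calls in a library.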

Other observations

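The 265 vomeronasal receptor pseudogenes, most of which lie within the cluster spans, had pooled promoter levels of 0.620 in WT, 0.627 in the *Pld6* KO and 0.149 in the *Dnmt3l* KO. Their bodies had 0.655, 0.623 and 0.169. Of 76 pseudogene promoters with 10 or more calls per library, 60 were lower in *Dnmt3l* KO by at least 0.3, and 5 in *Pld6* KO. Over all autosomal protein-coding genes the shares were 24.3% and 0.321%. The *Dnmt3l* KO body interval of the pseudogenes (0.160 to 0.178) lies above that of the *Vmn2r* genes (0.102 to 0.115).

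Span levels of the clusters ran from 0.531 to 0.817 in WT and from 0.0858 to 0.197 in *Dnmt3l* KO. Cluster 3-1 (*Vmn2r1* to *Vmn2r7*) had 0.817 in WT and 0.174 in *Dnmt3l* KO over its span, and cluster 7-5, a run of 15 *Vmn2r* genes, had 0.544 and 0.0945. The members of both are V2R genes, cluster 7-5 also spans 16 other protein-coding genes, and both have a like number of CpG sites per kb, 5.14 and 5.15. Their GC contents differ, with 38.88% in cluster 3-1 and 36.89% in cluster 7-5, which is the lowest value of the clusters. Whether GC content had a part in the difference in level between these clusters was not tested. In cluster 13-1, the 75 CpG sites of the *Vmn1r* bodies had a *Dnmt3l* KO level of 0.402, the highest of the body values of the clusters, beside 0.890 in WT.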
